A study of Oryza sativa Japonica Group with 8 samples.

Results

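The 10 gene IDs for small heat-shock proteins of the cytosol, mitochondria, plastids and endoplasmic reticulum were followed in rice seedlings, 10 of the 38978 IDs counted. The rule takes them by ID and uses no measured value, but the set was put together with earlier results of these libraries known. They are Os01g0136100, Os01g0136200, Os03g0266300, Os03g0266900, Os03g0267000, Os03g0267200, Os01g0184100, Os02g0758000, Os03g0245800 and Os04g0445100. No source used here says which of the 10 acts in which compartment, so none is given a compartment. The low-count filter kept 8 of the 10, and Os03g0245800 and Os04g0445100 are described by their counts alone.

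The libraries came from shoots of 10-day-old seedlings of rice cultivar Taipei 309. The 4 groups were transgenic seedlings carrying Arabidopsis DREB1a behind the stress-inducible RD29a promoter after a cold shock of 20 h on ice (T_CS), the same genotype at room temperature (T_RT), non-transgenic seedlings after the same cold shock (N_CS) and non-transgenic seedlings at room temperature (N_RT). T is described in the labels as a pool of homozygous lines 11, 20 and 29, picked for like induction of the transgene, while the study's text lists fewer of these lines. N is called wild type in the labels, and the parental founder line T5 in the text. T carries, beside DREB1a, the genes NPTII, GUS, GFP and pporRFP at one locus, and pporRFP is driven by a soybean small heat-shock protein promoter. The parts of these transgenes in the differences below cannot be told apart. Each group was 1 RNA pool of 6 seedlings with 2 technical libraries, so tests compare pools and the spread between libraries is technical. Fewer cells with a transcript and less transcript per cell cannot be told apart in such pools.

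Small heat-shock proteins are chaperones that share an alpha-crystallin domain and assemble into oligomers. They bind proteins that are losing their fold and hold them soluble until ATP-driven chaperones such as Hsp70 and Hsp101 refold them. Plants have separate families for each compartment, most of them switched on by heat through heat-shock factors that bind heat-shock elements in the promoters. Transcript levels in unheated leaves are usually low.

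Total counts ranged from 18963211 to 24405824 per library. Levels are given as CPM, a count divided by the library total after TMM scaling for library composition and multiplied by 1000000. CPM does not correct for transcript length, so levels are compared between groups and not between genes. All 9 leaf marker IDs listed from general knowledge (rubisco small subunit and light-harvesting proteins) were detected, with summed levels of 31472 to 32351 CPM in T_CS, 33183 to 33257 in T_RT, 34075 to 34292 in N_CS and 21592 to 21784 in N_RT. The low N_RT values were not tested for a part in the differences below.

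The 10 genes together were lowest in cold-shocked transgenic seedlings and highest in cold-shocked non-transgenic seedlings. Their summed level was 11.6 and 10.3 CPM in the T_CS libraries, 27.4 and 30.8 CPM in T_RT, 47.6 and 48.6 CPM in N_CS, and 23.1 and 22.5 CPM in N_RT. No library of T_CS or N_CS overlapped a library of another group. The group means were 10.9 ± 0.895 CPM in T_CS, 29.1 ± 2.41 CPM in T_RT, 48.1 ± 0.695 CPM in N_CS and 22.8 ± 0.441 CPM in N_RT (SD, n = 2 technical libraries each). Os02g0758000 held 10.5% of the genes' counts in T_CS, 33.2% in T_RT, 41.7% in N_CS and 20.8% in N_RT. Without it, the other 9 genes summed to 9.78 ± 0.790 CPM in T_CS, 19.4 ± 2.06 CPM in T_RT, 28.0 ± 0.655 CPM in N_CS and 18.1 ± 0.345 CPM in N_RT (SD, n = 2 each). T_CS was the lowest and N_CS the highest group also without Os02g0758000. The 2 room-temperature groups, however, did not overlap with it and overlapped without it, at 17.9 and 20.9 CPM in T_RT against 18.3 and 17.9 CPM in N_RT.

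**Figure D1:**
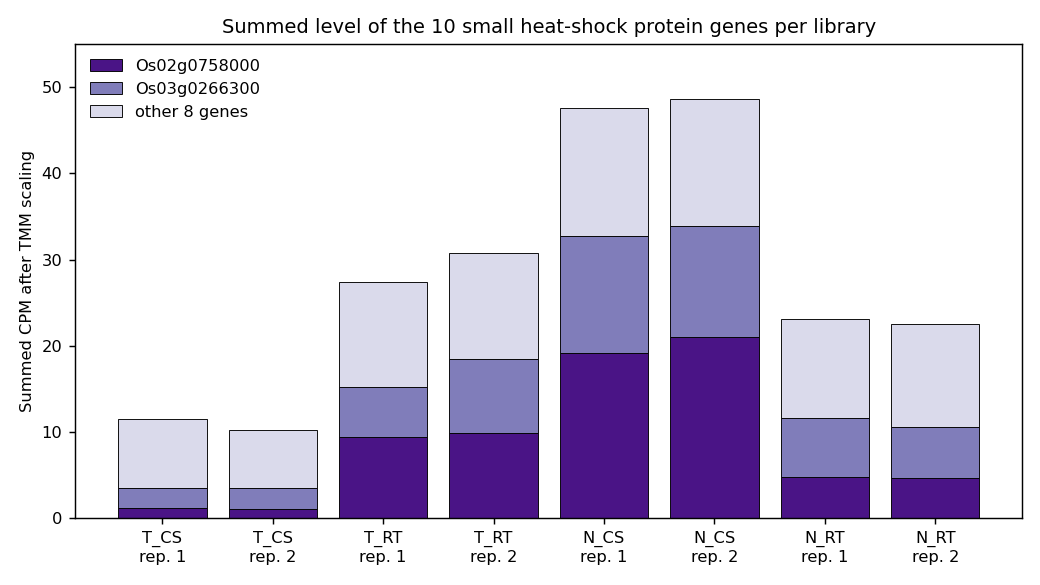
Summed level of the 10 small heat-shock protein genes in each of the 8 libraries, in CPM after TMM scaling, split into Os02g0758000, Os03g0266300 and the other 8 genes. Both T_CS bars are the lowest (11.6 and 10.3 CPM) and both N_CS bars the highest (47.6 and 48.6 CPM).

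Transgenic and non-transgenic seedlings after cold shock were compared first, since RD29a:DREB1a is induced by cold. Os03g0267000 passed the low-count filter through non-transgenic libraries alone, so it is left out of the tallies of order and overlap and of the medians in the text. It stays among the 8 in counts past the FDR, which it did not pass in any comparison of the main fit. Os03g0266900 passed the filter with 0 T_CS libraries. It is kept, but the filter favoured its place in tallies and medians where T_CS is the lower group. The other 7 tested genes were below N_CS in both T_CS libraries, where 39.7% of all tested genes had both libraries below. Of the 8, 5 fell at a false discovery rate (FDR, the Benjamini-Hochberg adjusted p of edgeR's quasi-likelihood test) of 0.01 or less, and 20.9% of all tested genes fell by this rule. None rose by edgeR, none rose at an unadjusted p under 0.05, and 0 rose by DESeq2, against 21.4% of all tested genes by edgeR. The fold threshold of the study for a lower call, a log2 fold change of -1 or less, was met by 4 of the 8, and 4.92% of all tested genes met it. The median log2 fold change was -1.56 over the 7 genes and -0.05 over all 28218 genes tested.

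Os02g0758000 changed most of the 8 in this comparison. It had 1.22 and 1.07 CPM in T_CS, 9.43 and 9.92 CPM in T_RT, 19.2 and 21.1 CPM in N_CS, and 4.81 and 4.67 CPM in N_RT. The libraries of the 4 groups did not overlap, and N_CS was the highest and T_CS the lowest. Its log2 fold change, T_CS over N_CS, was -4.12 (SE 0.180, FDR 6.12e-31), which is 17.4-fold lower in T_CS. From the lowest up, it ranked 31 of 28218 genes.

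Os03g0266300 had the second largest fall of the 8 genes. It had 2.28 and 2.42 CPM in T_CS, 5.80 and 8.54 CPM in T_RT, 13.6 and 12.8 CPM in N_CS, and 6.84 and 5.93 CPM in N_RT. The room-temperature libraries overlapped each other, and lay between N_CS above and T_CS below. On the log2 scale the difference between T_CS and N_CS was -2.49 (SE 0.179, FDR 8.61e-20), 5.63-fold lower in T_CS. The calls of Os02g0758000 and Os03g0266300 in T_CS versus N_CS were not lost under any alternative setting or with any library left out.

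Os03g0266900 had 0.253 and 0.281 CPM in T_CS, 1.22 and 1.26 CPM in T_RT, 0.929 and 1.50 CPM in N_CS, and 0.807 and 0.292 CPM in N_RT. These rest on 5 and 5 counts in T_CS and 21 and 29 counts in N_CS. Its highest group was T_RT, which overlapped N_CS. On the log2 scale the difference between T_CS and N_CS was -2.15 (SE 0.558, FDR 0.000839), 4.43-fold lower, and without N_CS replicate 2 its FDR was 0.0259, the highest of a range from 0.00029 over the alternatives.

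Os01g0136200 had 0.760 and 0.506 CPM in T_CS, 1.72 and 1.50 CPM in T_RT, 1.50 and 2.32 CPM in N_CS, and 1.15 and 1.61 CPM in N_RT. T_CS lay below the 3 other groups, which overlapped in turn. On the log2 scale the difference between T_CS and N_CS was -1.56 (SE 0.391, FDR 0.00054), 2.95-fold lower. The call was lost without T_CS replicate 2 (FDR 0.0128) and without N_CS replicate 2 (FDR 0.0288), within a range of 0.000136 to 0.0288.

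Os01g0184100 fell less. It had 3.95 and 3.49 CPM in T_CS, 4.40 and 4.29 CPM in T_RT, 6.28 and 6.19 CPM in N_CS, and 4.46 and 3.94 CPM in N_RT. N_CS lay above the other groups, and N_RT overlapped both transgenic groups. On the log2 scale the difference between T_CS and N_CS was -0.74 (SE 0.184, FDR 0.000485), 1.67-fold lower, short of the fold threshold. Its counts were 1.09 to 1.28 times those of the neighbouring ID Os01g0184050 in all 8 libraries. The strand and overlap settings of the counting are not stated, so reads may be shared between the pair and the value is uncertain.

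The 3 remaining tested genes did not pass the FDR in this comparison. Os03g0267200 had 2.43 and 1.63 CPM in T_CS, 4.03 and 4.13 CPM in T_RT, 3.89 and 2.74 CPM in N_CS, and 3.96 and 4.62 CPM in N_RT, with a log2 fold change of -0.71 in T_CS versus N_CS (SE 0.245, FDR 0.0125). Its FDR sits just above the threshold. A call was gained under 5 of the 16 alternatives and not under 11. The 5 include total count scaling (FDR 0.0050), no low-count filter (FDR 0.00879) and the looser FDR threshold, which reuses the main fit. Over all alternatives the log2 fold change of Os03g0267200 ran from -1.03 to -0.43. Its counts were 0.663 to 0.957 times those of the neighbouring ID Os03g0267100, whose own log2 fold change was -0.73 (FDR 0.00358), so here too reads may be shared.

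Os01g0136100 had 0.405 and 0.619 CPM in T_CS, 0.363 and 1.05 CPM in T_RT, 1.11 and 1.24 CPM in N_CS, and 0.654 and 0.973 CPM in N_RT. The 2 T_RT libraries spanned both T_CS and N_RT. On the log2 scale the difference between T_CS and N_CS was -1.19 (SE 0.502, FDR 0.0403). Os03g0267000 had 3 and 4 counts in T_CS, 8 and 1 in T_RT, 12 and 10 in N_CS, and 12 and 9 in N_RT. Its log2 fold change was -1.46 (SE 0.763, FDR 0.104), and its counts reached 10 only in non-transgenic libraries.

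**Figure D2:**
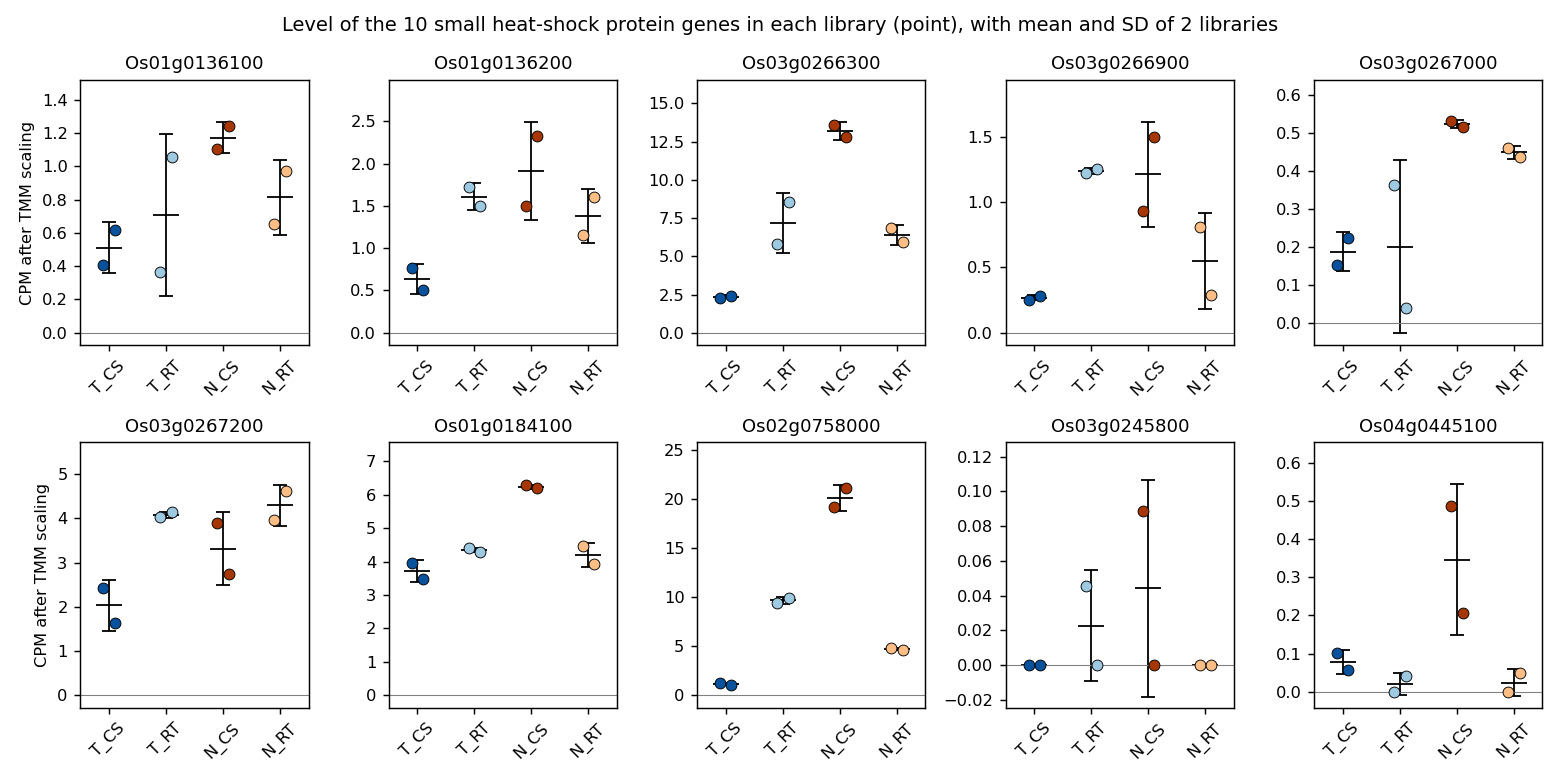
Level of each of the 10 genes in CPM after TMM scaling, with 1 point per library and bars for the mean and SD of the 2 technical libraries of a group, each panel on its own scale. T_CS has the lowest mean in the 7 genes that passed the filter through transgenic libraries as well, of which Os03g0266900 did so through T_RT and not T_CS. Os03g0245800 and Os04g0445100 lie near 0 in most libraries.

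The 2 genes left out by the filter were barely detected. Os04g0445100 had 2 and 1 counts in T_CS, 0 and 1 in T_RT, 11 and 4 in N_CS, and 0 and 1 in N_RT. Scaled to library size, T_CS held 0.224 times the N_CS level (95% counting interval 0.0415 to 0.791), and N_CS held 16.6 times the N_RT level (95% interval 2.56 to 700.4). Os03g0245800 had 0 and 0 counts in T_CS, 1 and 0 in T_RT, 2 and 0 in N_CS, and 0 and 0 in N_RT. No fold change is given for it. The 0 counts allow up to 0.0800 CPM in T_CS and 0.0644 CPM in N_RT, taken as 3 counts over a group. These intervals and limits cover counting error only.

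The order of the 4 groups was then read for the 7 genes without Os03g0267000. T_CS had the lowest mean for 7 of 7, against 34.8% of all tested genes. One of the 7, Os03g0266900, passed the filter through groups other than T_CS alone, which favours this order. N_CS had the highest mean for 5 of 7, against 26.6% of all tested genes. The exceptions were Os03g0266900, highest in T_RT with N_CS overlapping it, and Os03g0267200, highest in N_RT with T_RT overlapping it. The order of means was not always a separation of libraries. T_CS overlapped T_RT for Os01g0136100 and N_RT for Os01g0184100, and N_CS overlapped T_RT for Os01g0136200.

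At room temperature, where the RD29a promoter has not been cold-induced, the genotypes differed in 1 of the 8 genes. Os02g0758000 was 2.04-fold higher in T_RT than in N_RT (log2 fold change 1.03, SE 0.142, FDR 1.62e-08), whereas it was lower in T_CS than in N_CS. For comparison, 9.44% of all tested genes rose and 7.49% fell in this comparison. No small heat-shock protein gene fell by edgeR, at an unadjusted p under 0.05 (0 genes) or by DESeq2 (0 genes). Os03g0266900 (log2 fold change 1.11, SE 0.449, FDR 0.0627) and Os03g0267000 (log2 fold change -1.19, FDR 0.254) did not pass the FDR. The other 5 genes lay between -0.15 and 0.24 on the log2 scale, with FDR from 0.485 to 0.908. The median was 0.17 over the 7 genes and 0.00 over all genes tested. T_RT versus N_RT shares no library with T_CS versus N_CS.

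**Figure D3:**
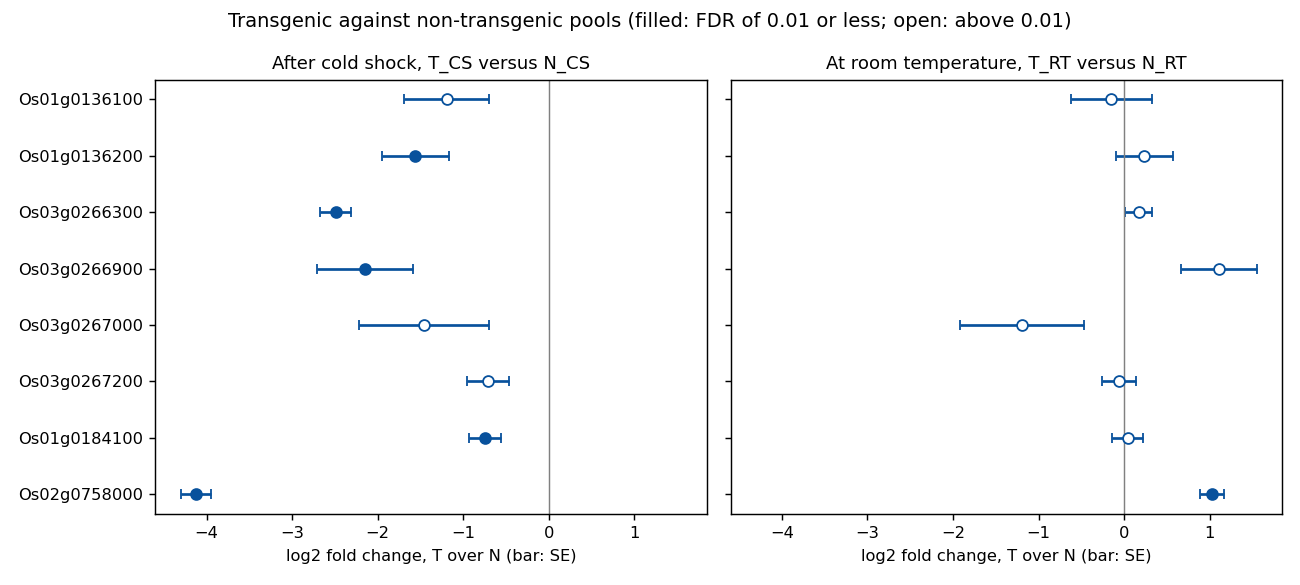
Log2 fold change of the 8 tested genes with SE bars, T_CS versus N_CS on the left and T_RT versus N_RT on the right, filled where the FDR was 0.01 or less. After cold shock the points of the 7 genes without Os03g0267000 lie left of 0 and 5 are filled, while at room temperature the only filled point is Os02g0758000, to the right of 0. Os03g0267000 is drawn but not counted, since it passed the filter through non-transgenic libraries alone.

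The cold response within each genotype was compared next. In transgenic seedlings, 5 of the 8 genes fell after cold shock and 0 rose, and 26.2% of all tested genes fell and 26.2% rose. Of the 8, 0 rose at an unadjusted p under 0.05, and 0 rose by DESeq2. Os02g0758000 was 8.41-fold lower in T_CS than in T_RT (log2 fold change -3.07, SE 0.198, FDR 4.08e-22). Os03g0266900 was 4.57-fold lower (log2 fold change -2.19, SE 0.548, FDR 0.000404) and Os03g0266300 was 3.07-fold lower (log2 fold change -1.62, SE 0.193, FDR 3.67e-11). Os01g0136200 was 2.50-fold lower (log2 fold change -1.32, SE 0.395, FDR 0.00291). These 4 met the threshold for a lower call, which 11% of all tested genes met. Os03g0267200 was 1.99-fold lower (log2 fold change -0.99, SE 0.234, FDR 0.00019), just short of it.

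Some of these calls rested on single libraries. Without T_CS replicate 2, 3 of the 8 genes fell in T_CS versus T_RT, since Os01g0136200 had an FDR of 0.0417 (range 0.00117 to 0.0417) and Os03g0267200 one of 0.0132 (range 3.19e-05 to 0.0132). Os01g0136200 was also lost with DESeq2 (FDR 0.0189) and without T_RT replicate 1 (FDR 0.0253). The genes that did not pass were Os01g0136100 with a log2 fold change of -0.50 (FDR 0.427), Os01g0184100 with -0.22 (FDR 0.327) and Os03g0267000 with -0.05 (FDR 0.966). The median was -1.32 over the 7 genes and -0.01 over all genes tested.

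In non-transgenic seedlings, 3 of the 8 genes rose after cold shock and 0 fell, against 19.7% and 21.1% of all tested genes. Of the 8, 0 fell at an unadjusted p under 0.05, and 0 fell by DESeq2. Os02g0758000 rose 4.23-fold in N_CS versus N_RT (log2 fold change 2.08, SE 0.131, FDR 2.4e-22) and was the only one of the 8 to reach the threshold for a higher call, a log2 fold change of 2 or more, which 0.89% of all tested genes reached. Os03g0266300 rose 2.06-fold (log2 fold change 1.04, SE 0.144, FDR 5.09e-09). Os01g0184100 rose 1.48-fold (log2 fold change 0.56, SE 0.174, FDR 0.00507), a call that was lost with DESeq2 (FDR 0.0439), with total count scaling (FDR 0.0255) and when any 1 of the 4 N libraries was left out (FDR 0.0211 to 0.0827), within a range of 0.00319 to 0.0827. Os03g0266900 had a log2 fold change of 1.06 (FDR 0.0475) and Os03g0267200 one of -0.35 (FDR 0.160), neither past the FDR. The median was 0.56 over the 7 genes and 0.01 over all genes tested.

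Os02g0758000 and Os03g0266300, 2 of the 8 genes, fell after cold shock in T and rose in N past the FDR, against 2.5% of all tested genes. The difference between the cold responses was tested directly, as the response in T minus that in N. It was negative past the FDR for 4 of the 8 genes and positive for 0, against 15.6% and 17% of all tested genes. By edgeR at an unadjusted p under 0.05, 6 genes were negative and 0 positive, and by DESeq2 3 were negative and 0 positive. The difference was -5.15 on the log2 scale for Os02g0758000 (SE 0.235, FDR 1.61e-29), -3.25 for Os03g0266900 (SE 0.718, FDR 0.000126), -2.66 for Os03g0266300 (SE 0.240, FDR 2.95e-15) and -1.80 for Os01g0136200 (SE 0.515, FDR 0.00311). Os01g0184100 missed the threshold at -0.78 (SE 0.259, FDR 0.0107), as did Os01g0136100 at -1.04 (FDR 0.235), Os03g0267200 at -0.64 (FDR 0.0984) and Os03g0267000 at -0.27 (FDR 0.875). The call of Os01g0136200 was lost with DESeq2 (FDR 0.0270) and without T_CS replicate 2, T_RT replicate 1, N_CS replicate 2 or N_RT replicate 1 (FDR 0.0166 to 0.0405), within a range of 0.0013 to 0.0405. This comparison uses the same libraries as those above and is not further evidence for them.

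**Figure D4:**
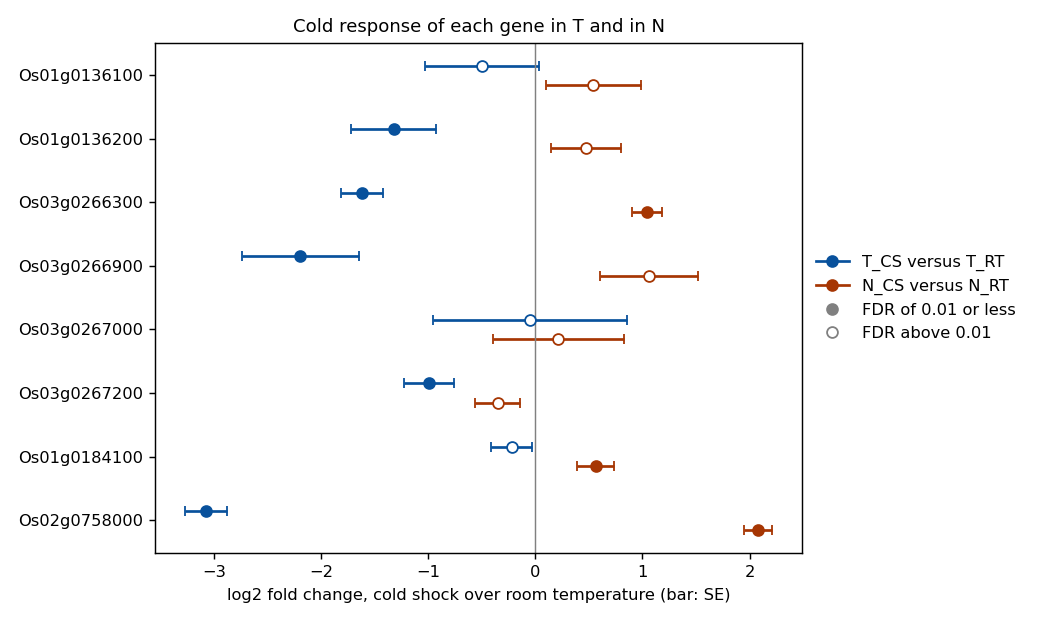
Log2 fold change after cold shock over room temperature for the 8 tested genes, in transgenic (T, blue) and non-transgenic (N, red) seedlings, with SE bars and filled points at an FDR of 0.01 or less. Os02g0758000 lies at -3.07 in T and 2.08 in N, and Os03g0266300 at -1.62 in T and 1.04 in N.

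Of the genes, 6 lie in 2 runs of consecutive IDs, and their neighbours were examined in T_CS versus N_CS. In the run from Os03g0266000 to Os03g0267500, which holds 4 of the 10 genes, 8 of the 9 other IDs were tested. Of these 2 rose, 3 fell and 3 did not pass the FDR, none was called lower, and their log2 fold changes ran from -0.73 to 0.32. In the run from Os01g0135800 to Os01g0136300, which holds 2 of the genes, 2 of the 5 other IDs were tested, and 1 rose and 0 fell. The ID that rose is Os01g0135900. It is listed below as a further small heat-shock protein ID, as are Os01g0135800 and Os01g0136000, so these neighbours may not be unrelated genes. The names of that list could not be checked. The IDs are in order of position, but no coordinates of the build were at hand.

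Other parts of the heat response were read from 3 lists of IDs written from general knowledge, whose names could not be checked against any table. Of 23 IDs for larger chaperones, 19 were tested, and 19 fell in T_CS versus N_CS, 10 of them past the fold threshold, where 20.9% of all tested genes fell and 4.92% passed it. No ID of this list rose by edgeR, 0 did so at an unadjusted p under 0.05 and 0 by DESeq2, by which 17 fell. The median log2 fold change of the list was -1.11, and the range -3.97 to -0.11. In T_RT versus N_RT, 7 of the 19 rose and 7 fell, against 9.44% and 7.49% of all tested genes. In T_CS versus T_RT 3 rose and 16 fell, against 26.2% and 26.2%. In N_CS versus N_RT 8 rose and 5 fell, against 19.7% and 21.1%.

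Of 21 IDs for heat-shock factors, the transcription factors that bind heat-shock elements, 19 were tested, and 6 rose and 8 fell in T_CS versus N_CS, against 21.4% and 20.9% of all tested genes. Their median was -0.18 and their range -4.87 to 1.81. The study names one of them, Os08g0546800, as OsHsfB2b, a class B heat-shock factor. It had 3 and 0 counts in T_CS, 19 and 33 in T_RT, 56 and 49 in N_CS, and 13 and 2 in N_RT. Scaled to library size, T_CS held 0.0320 times the N_CS level (95% counting interval 0.00649 to 0.0960). Like Os02g0758000, it was lowest in T_CS and highest in N_CS. Among IDs of this list with more counts, Os03g0161900, Os09g0526600, Os10g0419300 and Os07g0178600 had the same lowest and highest group means. They are examples picked for that order. Taken singly, T_CS was lowest for 34.8% and N_CS highest for 26.6% of all tested genes, and the share with both was not counted. Os04g0568700 did not share the order, with 0.931 CPM in T_CS, 4.83 CPM in N_CS and its lowest mean, 0.904 CPM, in N_RT. Os03g0161900 had a mean of 4.07 CPM in T_CS, 20.9 CPM in T_RT, 52.2 CPM in N_CS and 9.97 CPM in N_RT. The list as a whole moved in both directions. Os02g0527300 was highest in T_CS (137 CPM, and 39.6 CPM in N_CS), as was Os03g0224700 (79.4 CPM, and 22.6 CPM in N_CS).

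Of 10 further IDs for small heat-shock proteins, 4 were tested. Os06g0253100 had 1 and 0 counts in T_CS, 49 and 62 in T_RT, 95 and 53 in N_CS, and 13 and 12 in N_RT, and T_CS held 0.00756 times the N_CS level (95% counting interval 0.00019 to 0.0428). Os01g0135900, the ID that rose in the run of neighbours above, went the other way between the genotypes. It had 45.7 and 44.2 CPM in T_CS, 146.8 and 155.5 CPM in T_RT, 33.8 and 35.2 CPM in N_CS, and 138.4 and 143.7 CPM in N_RT. It rose in T_CS versus N_CS (log2 fold change 0.39, SE 0.0594, FDR 8.15e-08) and fell after cold shock in both genotypes. Of the 4, 1 rose and 2 fell in T_CS versus N_CS, against 21.4% and 20.9% of all tested genes. Beside Os06g0253100, Os06g0219500 fell (log2 fold change -3.33, SE 0.527, FDR 1.56e-07). The median of -1.57 lies in the gap between Os06g0219500 and Os05g0500500 (log2 fold change 0.19, FDR 0.531), with no ID near it.

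**Figure D5:**
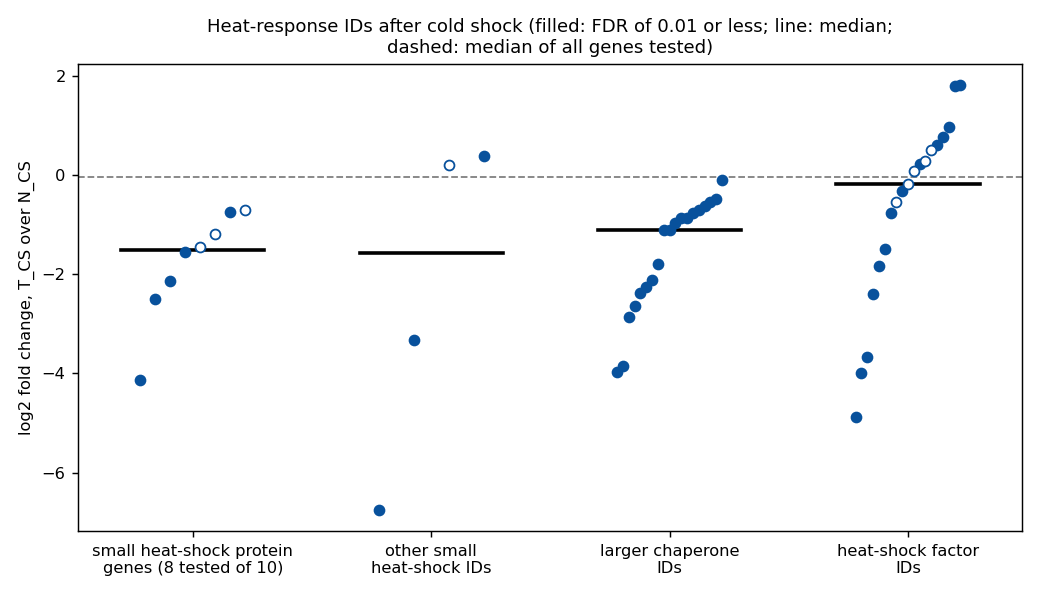
Log2 fold change in T_CS versus N_CS of the 8 tested small heat-shock protein genes and of the tested IDs of the 3 unchecked lists, 1 point per ID, filled at an FDR of 0.01 or less, with a line at each list's median. The median is -1.51 for the small heat-shock protein genes with Os03g0267000, and -1.56 over the 7 without it. For the further small heat-shock protein IDs it is -1.57, with 2 IDs below 0 and 2 above. It is -1.11 for the larger chaperones and -0.18 for the heat-shock factors. The points of IDs with few counts depend on the prior count of the fit.

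Among all tested IDs outside the lists, Os05g0548900 had the pattern most like the mean of the 8 genes, Os03g0267000 included, by a narrow margin. Its Pearson r with their mean centred log2 CPM was 0.996 over the 8 libraries, which are technical pairs from 4 pools, so this is a description with 4 independent points at most. It had 7.25 and 6.86 CPM in T_CS, 25.0 and 25.9 CPM in T_RT, 58.8 and 57.0 CPM in N_CS, and 24.4 and 23.8 CPM in N_RT. The IDs ranked next had r from 0.993 to 0.994, so the pick is not distinctive. First among them was Os05g0548950, close in ID number, with 127 counts in T_CS replicate 1 where Os05g0548900 had 143. Reads may be shared between this pair.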

How the data were processed

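RNA-seq was done on 8 libraries, 2 technical libraries from each of 4 pools. The libraries were poly(A)-selected and stranded. The authors used Trimmomatic for trimming, STAR for alignment to IRGSP-1.0 and featureCounts 1.6.4 for counting per gene. Strand, multi-mapping and overlap settings are not given in the sources used here. The methods call the table normalized, but each deposited count is a whole number and the library sums are unequal, so the values were taken as raw counts. DREB1a itself was not analysed here.

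From these counts, edgeR 4.0.16 in R 4.3.3 was run on all genes kept by filterByExpr (minimum count 10, minimum total 15), 28218 of 38978. One quasi-likelihood model with a mean per group and TMM scaling (factors 0.935 to 1.07) gave 4 comparisons and the difference of the cold responses, with Benjamini-Hochberg adjustment over all genes. A gene rose or fell at an FDR of 0.01 or less, and was called where its log2 fold change was also 2 or more, or -1 or less, the study's thresholds. SE is the log2 fold change over the square root of F. The pairs of libraries correlated at 0.988 to 0.992 and differed beyond sampling noise, with a chi-square of 1.71 to 2.37 per degree of freedom.

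The genes and lists were chosen with earlier results of these data known. Named were all 10 genes, counts for the IDs in their 2 runs and the most alike ID. Of the largest changes of each list only some are printed, and no larger chaperone is named. The gene name table at hand, of another assembly, matched none of the list IDs. Os10g0419300 and Os07g0178600 were named for their order of groups, not for the size of their change. Alternatives were DESeq2 1.42.0, other scalings and filters, the 4 libraries of a comparison, the replicate number as a block, an FDR of 0.05 and leaving out each library. The steps were tested on simulated data. Promoter motifs and protein comparisons were not run, for want of sequences of this build.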

Additional observations from a re-analysis of the deposited data

Results flagged for a closer look

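For 4 small heat-shock protein genes the cold response differed between T and N past the FDR by edgeR's interaction test. The difference, the response in T minus that in N, was -5.15 on the log2 scale for Os02g0758000 (FDR 1.61e-29), whose response was -3.07 in T and 2.08 in N. It was -3.25 for Os03g0266900 (FDR 0.000126), with -2.19 in T and 1.06 in N, the second of which did not pass the FDR. It was -2.66 for Os03g0266300 (FDR 2.95e-15), with -1.62 in T and 1.04 in N. It was -1.80 for Os01g0136200 (FDR 0.00311), with -1.32 in T and 0.47 in N, and that gene's N response did not pass the FDR. Each pool is a single sample of its group, so these differences are between 4 pools.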

How the results depend on the processing

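Of the 8 tested small heat-shock protein genes, 5 passed the FDR in T_CS versus N_CS, 1 in T_RT versus N_RT, 3 in N_CS versus N_RT, 5 in T_CS versus T_RT and 4 in the difference of the cold responses. With each library left out in turn these counts ran from 4 to 6, 1 to 1, 2 to 3, 3 to 5 and 3 to 4, in the same order, the 3 being T_CS versus T_RT without T_CS replicate 2. With the replicate number as a block the counts were 5, 1, 3, 5 and 4, the block lost no call, and same-numbered libraries did not deviate together (correlations -0.0104 to 0.0113), so the numbers do not pair the samples. Of 626 values of single genes under an alternative, 589 kept direction and side of the threshold, 18 lost the call, 9 gained one and 10 changed sign, all 10 of them not past the FDR before. The FDR of 0.05 reuses the main fit, so its values keep their direction by construction. A gene with a main FDR between 0.01 and 0.05 gains a call there by rule, as Os01g0136100 did in T_CS versus N_CS (edgeR FDR 0.0403). The sign changes at room temperature with a library left out were in Os01g0136100 (-1.14 to 0.39), Os03g0266300 (-0.15 to 0.41), Os03g0267200 (-0.18 to 0.045) and Os01g0184100 (-0.038 to 0.14), the last also with total count scaling (-0.031). In T_CS versus T_RT they were in Os01g0136100 (-1.05 to 0.48) and Os03g0267000 (-0.94 to 2.06), and in the difference of the cold responses in Os03g0267000 (-1.15 to 1.84). Total count scaling moved the median of all genes by -0.11 in N_CS versus N_RT and by -0.12 in T_CS versus T_RT, and the shares of all genes higher and lower became 7.07% and 12.7% in T_RT versus N_RT (with TMM 9.44% and 7.49%), 13.1% and 26.7% in N_CS versus N_RT (19.7% and 21.1%), and 20.5% and 31.6% in T_CS versus T_RT (26.2% and 26.2%). It also gave a summed level of 24.3 CPM in N_RT in place of 22.8. The cause of the changes was not tested. Os03g0267000 was not tested under the filter of at least 1 CPM, and the promoter windows were not run. With 2 technical libraries per pool, no variation between seedlings was measured, and genes with few counts had wide errors.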
